A study of Mus musculus with 15 samples.

Results

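The genes of the cytoplasmic ribosomal proteins were followed across mouse brain samples with and without blockage of a cerebral artery. Genes were taken by symbol (Rpl or Rps followed by a number, Rplp0 to Rplp2 and Rpsa, without the S6 kinase genes and without symbols that mark a pseudogene by -ps) where at least 1 of the 15 labelled libraries held a read. This gave 89 of the 18931 genes in the deposited table. The symbols place 54 in the large subunit and 33 in the small subunit, and 10 of these 87 are paralogs or gene copies, among them Rpl6l, which RefSeq lists as a pseudogene. The remaining 2, Rps19bp1 (a nucleolar partner of the protein Rps19) and Rps23rg1 (a retrogene of Rps23 that codes for another kind of protein), matched the rule by name only. Of the 89 genes, 86 passed the filter on low counts and 3 did not (Rpl39l, Rpl3l and Rps23rg1).

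Ribosomal proteins assemble with ribosomal RNA into a small subunit, which reads the messenger RNA, and a large subunit, which joins amino acids. Nearly every protein is needed at the same amount, and the messenger RNAs of most of them begin with a run of pyrimidines that lets growth signalling through mTOR set how fast they are translated. Most subunits come from 1 expressed gene accompanied by silent processed pseudogenes, while a few have an expressed paralog, such as Rpl22 with Rpl22l1, a pair in which the Rpl22 protein is known to repress the paralog. In brain the genes are active in neurons and in glia alike.

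The 15 brain samples came from mice of the Kunming stock, and the labels list all of them under a model with middle cerebral artery occlusion (MCAO). There were 3 libraries in each of 5 groups, namely sham operation, vehicle, JA, UA and JU. The labels do not spell out JA, UA and JU, while the title of the study speaks of jasminoidin, an iridoid glycoside, together with the bile acid ursodeoxycholic acid in cerebral ischemia and reperfusion. The sources used here state no age, sex, dose, time of occlusion or brain region. They also do not say whether each library is a different animal, so a p-value reflects how much these libraries scatter, which could be technical scatter.

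Total counts ran from 18346180 to 20447465 per library. All 14 neuron markers were detected in every group, with a summed level of 6546 to 16721 CPM (counts scaled to the library size and its TMM factor). JU replicate 1 stood apart from all others. Its counts differed from those of its fellow JU libraries with chi-square values of 279 and 333 per degree of freedom, against 16.2 between the other two, and it held the highest value of 34.0% of all 15125 genes tested. Counts of called genes that move by more than 1.5 times without this library are given with and without it. The 20 microglia and macrophage markers, none of them at 0 throughout a group, summed to 668 to 753 CPM in sham, 4988 to 11172 in vehicle, 745 to 4273 in JA, 939 to 1985 in UA and 817 to 23818 in JU, where the highest value is that of replicate 1.

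In level, the ribosomal protein genes spread over a wide range. On the length-normalised scale (FPKM, as deposited), the 77 genes that are neither copies nor matched by name only had a median of 229 FPKM over all libraries. The quartiles were 160 and 358. Rpl41, which codes for a very short basic peptide of the large subunit, was highest at 1007 FPKM, followed by the stalk protein gene Rplp1 at 975 and the small-subunit gene Rps15 at 684. At the other end of these 77 genes, 7 lay under 50 FPKM, with Rpl34 lowest at 9.95, then Rpl21 at 16.8, Rpl29 at 18.2, Rps2 at 21.1 and Rpl35a at 27.1. Of the 89 genes, 60 have pseudogenes that GENCODE names after them, 298 in all, and reads from near-identical copies can be assigned to a gene, to its copy or to none. Levels of single genes are therefore uncertain where such copies exist.

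The 3 genes under the filter were nearly silent. Rps23rg1 had 14 counts over all 15 libraries and a mean of 0.029 FPKM. Rpl39l, best known from testis, had 39 counts (0.155 FPKM), and Rpl3l, the striated-muscle paralog of Rpl3, had 99 counts (0.186 FPKM). JU replicate 1 held the highest level of Rpl39l at 0.875 CPM, and Rpl3l was highest in JU replicate 2 at 1.04 CPM. These levels are a few reads each, since 3 counts in a library correspond to 0.147 to 0.164 CPM.

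Together the 89 genes took up between 1.38% and 2.38% of all counts in a library. The sham libraries gave 1.47%, 1.52% and 1.72%, and the vehicle libraries 1.87%, 2.28% and 1.79%. All vehicle values lay above all sham values. The JA libraries gave 1.73%, 1.38% and 1.39%, the UA libraries 1.73%, 1.62% and 1.46%, and the JU libraries 2.38%, 1.57% and 1.61%. Every JA and UA value lay below every vehicle value, while JU replicate 1 was the highest of all 15 libraries and the other 2 JU libraries lay below vehicle. Within 4 of the 5 groups the library with the largest summed microglia signal was also the one with the largest ribosomal protein share (sham replicate 3, vehicle replicate 2, JA replicate 1 and JU replicate 1), and in each of these it also had the lowest summed neuron signal. The exception was UA, where replicate 2 was highest in microglia markers and replicate 1 in ribosomal protein share. Short transcripts as a class moved with the share too. The tenth of genes with the shortest transcripts departed from its mean over all libraries by 0.01 ± 0.04 (log2, SD, n = 3) in sham, 0.07 ± 0.05 in vehicle, -0.07 ± 0.02 in JA, -0.0004 ± 0.08 in UA and 0.02 ± 0.03 in JU, and in each of the 5 groups it was highest in the library with the largest ribosomal protein share. The ribosomal protein genes tested have a median transcript of 896.5 bases, against 3179 for all genes. They were not taken out of the tenth with the shortest transcripts, so that part of its movement can be their own. With a correction for GC content and length, their median fold change was 0.27 in vehicle against sham, -0.22 in JA against vehicle and -0.23 in UA against vehicle, where the uncorrected values below are 0.29, -0.34 and -0.27. The part of cell composition in the share was not tested, and in bulk tissue fewer cells of a type and less RNA per cell cannot be told apart.

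**Figure D1:**
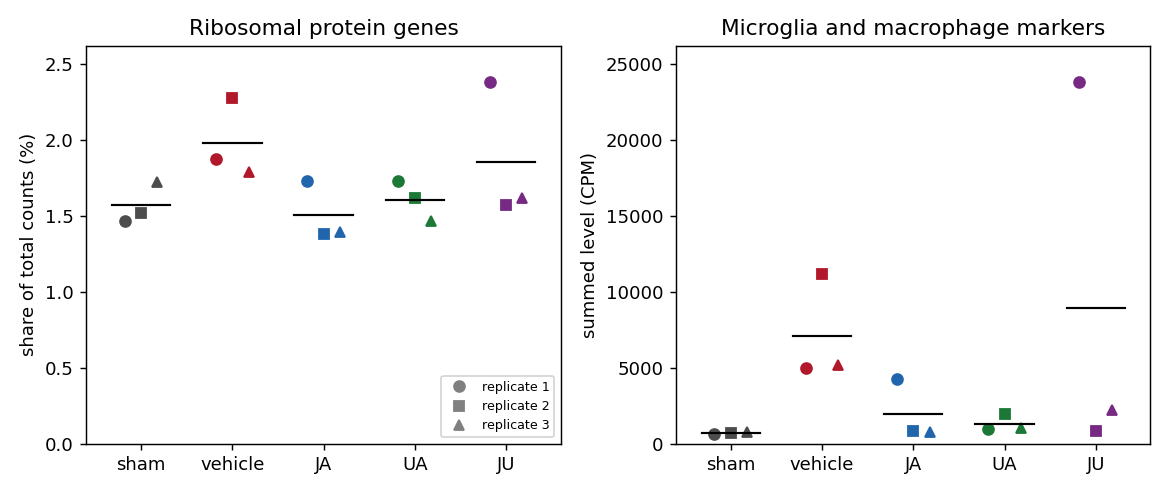
Left, share of total counts (%) taken by the 89 ribosomal protein genes in each of the 15 libraries. Right, summed level (CPM) of 20 microglia and macrophage markers. Symbols give the replicate number and black bars the group means. The 3 vehicle libraries lie at 1.79% to 2.28%, above the sham libraries at 1.47% to 1.72%, and JU replicate 1 is highest in both panels.

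After occlusion with vehicle, most ribosomal protein genes had a somewhat higher level than in sham, but none passed the test in that direction. The fold change was positive for 77 of the 86 genes tested, against 50.5% of all genes, and the median was 0.29 on the log2 scale, against 0.00 over all 15125 genes. In 44 genes all vehicle libraries lay above all sham libraries, where 24.5% of all genes did so, and in 2 genes (Rpl22l1 and Rpl30) all lay below, where 24.7% did so. By edgeR's quasi-likelihood test with Benjamini-Hochberg adjustment over all genes, 0 of 86 were higher (0.787% of all genes were) and 1 of 86, Rpl22l1, was lower (4.24% of all genes were). At an unadjusted p under 0.05, 28 were higher, against 14.5% of all genes, and 1 was lower, against 14.8%.

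The number of calls depended on JU replicate 1, although that library is in neither group. It enters the estimate of spread that all groups share. Without it, 36 of the 86 genes were called higher, where 17% of all genes were, and 1 was called lower, where 16.9% were, while the median stayed at 0.29. DESeq2 on all libraries called 13 higher, where 7.68% of the genes with an adjusted p were, and 1 lower, where 10.1% were. The large-subunit genes had a median of 0.31 (52 tested, 46 positive) and the small-subunit genes one of 0.28 (33 tested, 31 positive).

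Among the small-subunit genes, the largest fold change was that of Rps12, whose protein sits in the beak of the small subunit. It measured 102, 108 and 107 CPM in sham and 155, 213 and 159 CPM in vehicle, a difference of 0.73 ± 0.25 (log2, SE; adjusted p = 0.0902, and 0.00276 without JU replicate 1). All vehicle libraries lay above all sham libraries. Rps9, a core protein of the small subunit, differed by 0.56 ± 0.20 (adjusted p = 0.0949), with 211 to 248 CPM in sham and 315 to 379 in vehicle. Rps15 had the smallest p of the positive genes. It measured 386, 399 and 422 CPM in sham and 507, 554 and 475 in vehicle (0.35 ± 0.11, adjusted p = 0.0745, and 0.0102 without JU replicate 1), again with no overlap. Rps10 gave 0.49 ± 0.15 (adjusted p = 0.0762). Rps12, Rps9 and Rps10 were chosen after their values were seen.

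Among the large-subunit genes, Rpl10a was the furthest up at 0.65 ± 0.21 (adjusted p = 0.0813). Its levels were 149, 136 and 164 CPM in sham and 213, 295 and 197 in vehicle. Rpl41, the most abundant gene, measured 388, 368 and 429 CPM in sham against 497, 607 and 498 in vehicle (0.44 ± 0.15, adjusted p = 0.0905, and 0.00578 without JU replicate 1). In both genes the groups did not overlap, and in both vehicle replicate 2 was highest. Rpl3, which shapes the peptidyl transferase centre, differed little in comparison (545 ± 56.1 CPM in sham and 593 ± 71.4 in vehicle, SD, n = 3 each, with overlapping libraries).

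The stalk proteins recruit elongation factors to the large subunit. Rplp0, the base of the stalk, measured 190 ± 29.9 CPM in sham and 293 ± 103 in vehicle (SD, n = 3), a difference of 0.62 ± 0.36 (adjusted p = 0.265). Its spread was wide, since vehicle replicate 2 held 411 CPM and the other 2 vehicle libraries 222 and 246. Rplp1 (0.17 ± 0.13, adjusted p = 0.413) and Rplp2 (0.27 ± 0.14, adjusted p = 0.215) overlapped between the groups. Rpsa, the laminin-receptor homologue of the small subunit, gave 440 ± 78.5 CPM in sham and 457 ± 70.2 in vehicle, with overlap and a difference of 0.05 ± 0.22.

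Several ribosomal proteins have known roles outside the ribosome. Rpl5, Rpl11, Rpl23 and Rpl26 are known for binding Mdm2, the ubiquitin ligase that restrains p53, and Rpl11 had the largest positive fold change of these at 0.42 ± 0.17 (adjusted p = 0.123, and 0.0199 without JU replicate 1). Rpl5, its partner in a complex with 5S ribosomal RNA, was at 290 ± 20.6 CPM in sham and 290 ± 43.7 in vehicle. Rpl23 differed by 0.10 ± 0.21, and Rpl26 varied too much between libraries to be read, as shown further on. Rps3, also known from DNA repair, differed by 0.40 ± 0.16 (adjusted p = 0.133), Rpl13a, a translational silencer in inflammation, by 0.34 ± 0.18 (adjusted p = 0.221), and Rps6, the substrate of S6 kinase, by 0.32 ± 0.17 (adjusted p = 0.23). All 3 had vehicle libraries above every sham library. Without JU replicate 1, Rps3 and Rpl13a passed the test (adjusted p = 0.0118 and 0.0487) and Rps6 did not (adjusted p = 0.0642).

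**Figure D2:**
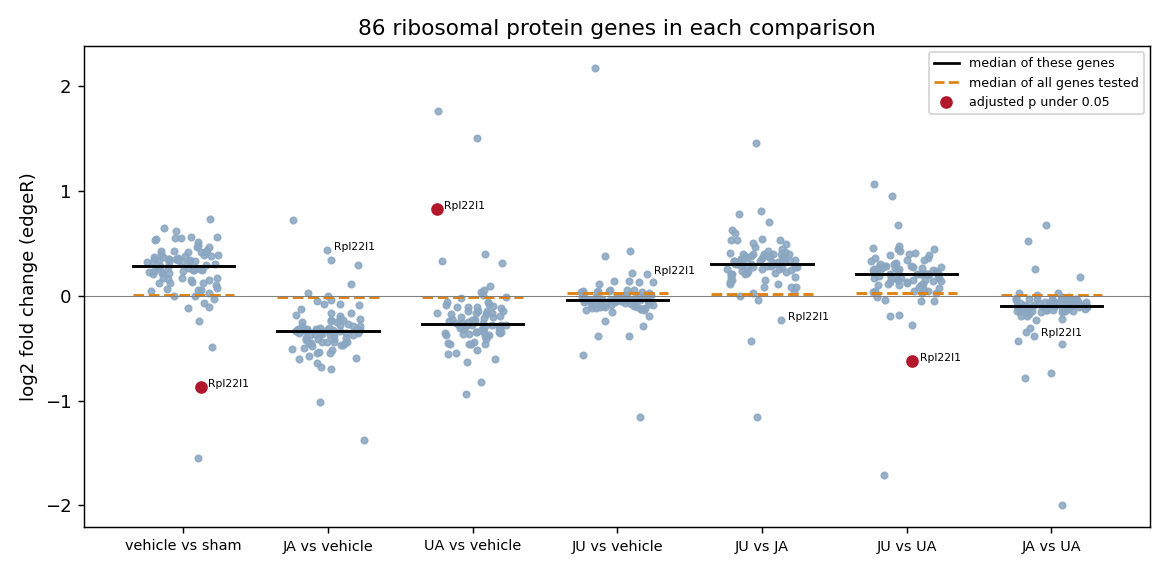
Log2 fold change (edgeR) of each of the 86 tested genes in the 7 comparisons. Black bars are the medians of these genes, dashed orange bars the medians of all genes tested, and red points genes with an adjusted p under 0.05. The medians run from 0.31 in JU against JA to -0.34 in JA against vehicle, and that of vehicle against sham is 0.29. The red points are all Rpl22l1, in vehicle against sham, UA against vehicle and JU against UA.

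The gene that passed the test, Rpl22l1, went against the rest. It codes for the paralog of Rpl22, an RNA-binding protein of the large subunit, and lies at chr3:28805508-28807424 (GRCm38). Its levels were 41.1, 45.2 and 54.0 CPM in sham and 27.4, 26.1 and 23.2 in vehicle, which no library of the other group reached. The gene fell by 0.87 ± 0.12 on the log2 scale (adjusted p = 0.00796, lower in 3 of 3 libraries). The counts behind these levels were 781, 868 and 1035 in sham and 535, 531 and 486 in vehicle. The adjusted p ran from 7.8e-08 with DESeq2 to 0.185 with a correction for transcript GC content and length, under which the difference was -0.55. Without sham replicate 3 it was 0.0553, at a difference of -0.76. With that correction and without JU replicate 1 together, an alternative added after seeing the data, the difference was -0.55 and the adjusted p 0.00896.

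Among the 86 genes Rpl22l1 has the lowest GC content, 40.6%, where the median of these genes is 51.6% and that of all genes tested 50.3%. Genes of low GC content as a class moved with the groups. The tenth of genes with the lowest GC content departed from the mean over all libraries by 0.08 to 0.16 (log2) in sham, by -0.18 to -0.16 in vehicle, by 0.04 to 0.15 in JA, by 0.09 to 0.15 in UA and by -0.20 to -0.10 in JU. The corrected values above give the fold change of Rpl22l1 with this trend removed.

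Rpl22 itself, at chr4:152324436-152334082, had a positive fold change and did not pass the test. It measured 109, 101 and 116 CPM in sham and 128, 159 and 124 in vehicle (0.34 ± 0.15, adjusted p = 0.158, and 0.0243 without JU replicate 1), and the groups did not overlap. On the FPKM scale, the ratio of Rpl22l1 to Rpl22 was 1.81, 2.15 and 2.24 in sham and 1.02, 0.786 and 0.896 in vehicle. On this scale, which divides by transcript length, the mean ratio was 2.06 ± 0.23 (SD, n = 3) in sham and 0.90 ± 0.12 in vehicle. In CPM, which are not scaled by length, Rpl22 was above Rpl22l1 in every library. The ratio was not corrected for GC content. An exact two-sided permutation test on the log ratio gave p = 0.1, the smallest that 3 against 3 libraries can give (adjusted p = 0.117 over 7 comparisons).

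The treated groups filled the range between. JA libraries held 37.8, 31.4 and 34.8 CPM of Rpl22l1, UA libraries 51.0, 43.4 and 41.6, and JU libraries 26.9, 32.7 and 28.8. In order of the mean, sham (46.8 ± 6.58 CPM) was followed by UA (45.4 ± 5.01), JA (34.7 ± 3.18), JU (29.5 ± 2.99) and vehicle (25.6 ± 2.12). Sham and UA overlapped, JA and JU overlapped, and JU and vehicle overlapped, while all UA libraries lay above all JA libraries. Against vehicle, Rpl22l1 rose in UA by 0.83 ± 0.12 (adjusted p = 0.0135, higher in 3 of 3 libraries). It was higher in JA by 0.44 ± 0.12 without passing the test (adjusted p = 0.0996, and 0.0237 without JU replicate 1), and in JU by 0.21 ± 0.12 (adjusted p = 1).

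Compared among treated groups, Rpl22l1 fell by 0.62 ± 0.12 in JU relative to UA (adjusted p = 0.0449), with all JU libraries below all UA libraries. This call was lost when any UA library, JU replicate 1 or JU replicate 3 was left out (adjusted p = 0.0619 to 0.155), and under most other settings. The UA call against vehicle was lost without vehicle replicate 2 (adjusted p = 0.0609), without UA replicate 1 (0.0571) and with the GC and length correction (0.309, at a difference of 0.50), and held with that correction when JU replicate 1 was left out as well (0.0218). JA and UA differed by -0.39 ± 0.12 (adjusted p = 1). The ratio to Rpl22 was 1.51 ± 0.08 in JA, 1.92 ± 0.14 in UA and 1.08 ± 0.33 in JU (SD, n = 3). It was 0.741 in JU replicate 1, below every vehicle library, and 1.39 and 1.11 in JU replicates 2 and 3, above every vehicle library. The exact permutation p of the log ratio was 0.1 in every comparison but JU against vehicle, where it was 0.5.

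**Figure D3:**
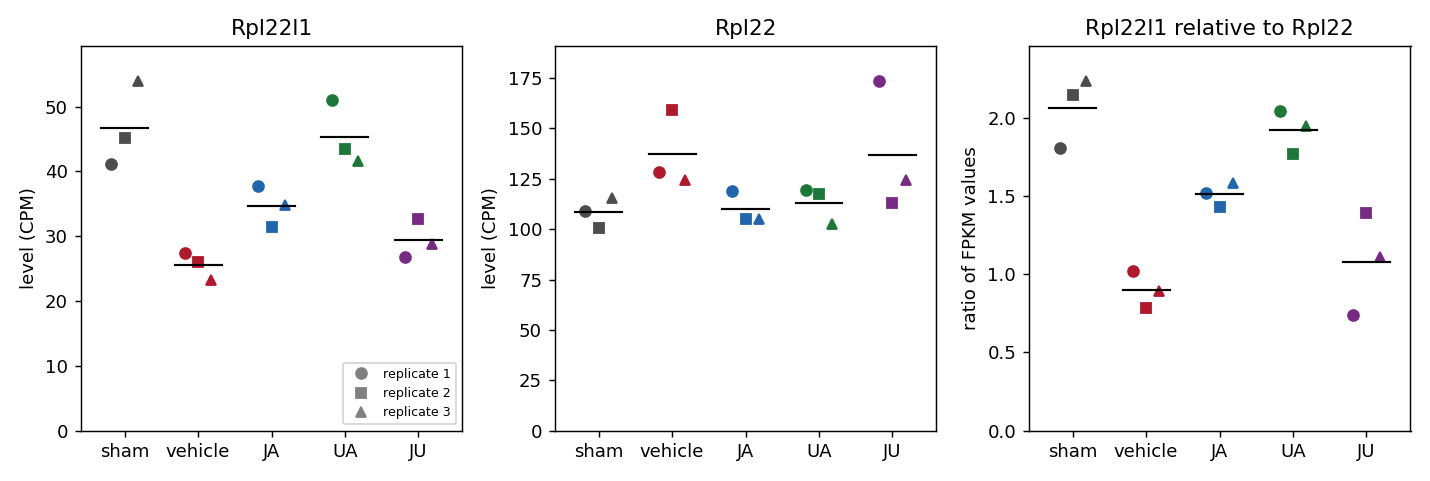
Level (CPM) of Rpl22l1 and of Rpl22, and the ratio of their FPKM values, in each library. Symbols give the replicate number and black bars the group means. Rpl22l1 lies at 41.1 to 54.0 CPM in sham and 23.2 to 27.4 in vehicle, and the ratio at 1.81 to 2.24 in sham and 0.786 to 1.02 in vehicle.

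The sequences around the start sites set Rpl22l1 beside the other members with the smallest p in vehicle against sham that have a single promoter entry. Each line gives 60 bases before and 20 from the annotated start, from RefSeq (GRCm38.p6), with the longest run of C and T in capitals. They lie at chr3:28805448-28805527 (+) for Rpl22l1, chr10:80292371-80292450 (+) for Rps15, chr17:27635225-27635304 (-) for Rps10, chr10:23787190-23787269 (-) for Rps12, chr10:128549149-128549228 (-) for Rpl41 and chr7:3703981-3704060 (+) for Rps9.
Rpl22l1: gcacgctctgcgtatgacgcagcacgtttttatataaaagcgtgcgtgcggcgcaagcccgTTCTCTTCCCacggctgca
Rps15: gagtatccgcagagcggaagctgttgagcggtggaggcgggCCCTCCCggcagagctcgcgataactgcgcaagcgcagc
Rps10: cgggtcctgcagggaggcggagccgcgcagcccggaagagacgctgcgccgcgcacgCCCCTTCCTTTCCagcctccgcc
Rps12: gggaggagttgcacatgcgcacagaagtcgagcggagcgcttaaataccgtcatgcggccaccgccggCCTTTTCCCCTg
Rpl41: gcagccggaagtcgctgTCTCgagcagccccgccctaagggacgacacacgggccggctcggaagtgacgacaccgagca
Rps9: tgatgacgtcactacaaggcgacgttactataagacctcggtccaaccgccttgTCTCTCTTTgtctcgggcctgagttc
The run of Rpl22l1 is 10 bases long and starts just after the annotated start, those of Rps10 (13 bases) and Rps9 (9 bases) span it, and that of Rps12 (11 bases) lies after it. The longest runs of Rps15 (7 bases) and Rpl41 (4 bases) lie before the annotated start.

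RefSeq promoter entries matched 68 of the 89 genes. A run of at least 8 pyrimidines within 20 bases either side of the start was present in 32 of the 68 (47.1%), against 18.4% of 27025 genes with an entry. The letters CCGGAAG, the core bound by factors of the ETS family, occurred on either strand within 300 bases in 26 of the 68 (38.2%), against 9.93% of all genes, and were absent from the Rpl22l1 window. The letters AAGATGG, part of a YY1 motif, occurred in 14.7% against 7.28%. TATAAA, in the 50 bases before the start on either strand, occurred in 1 of the 68 (1.47%), against 4.17% of all genes, and that 1 gene is Rpl22l1, where it begins 28 bases before the start. These are matches of letters, not mapped binding sites.

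Besides Rpl22l1, 4 paralogs or copies with enough counts were set against their parent gene. Rpl36al, the autosomal copy of the X-linked Rpl36a, stood at 0.468 ± 0.0257 of its parent in sham and at 0.462 ± 0.0441 in vehicle on the FPKM scale. Rpl7l1, a relative of Rpl7, stood at 0.0613 ± 0.00454 and 0.0632 ± 0.00278, and Rps27rt, a retrocopy of Rps27, at 0.113 ± 0.00445 and 0.111 ± 0.0130. Rps27l, a p53-inducible relative of Rps27, stood at 0.0139 ± 0.000450 in sham and 0.0173 ± 0.00337 in vehicle, and JU replicate 1 had the highest ratio at 0.0267. As changes in level, Rpl7l1 differed between vehicle and sham by 0.38 ± 0.15 and Rpl36al by 0.31 ± 0.13, close to their parents Rpl7 (0.34 ± 0.22) and Rpl36a (0.33 ± 0.16). Neither passed the test (adjusted p = 0.128 and 0.143). Of the 8 paralogs and copies tested, 1 was called, which is Rpl22l1, called lower as were 4.24% of all genes. When JU replicate 1 was left out, 3 were called higher and 1 lower, against 17% and 16.9% of all genes.

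Besides Rpl22l1, 8 genes had a fold change of the opposite sign to the majority in vehicle against sham, none past the test. They were Rpl26 (-1.55 ± 0.84), Rpl30 (-0.49 ± 0.30), Rpl39 (-0.24 ± 0.18), Rps19bp1 (-0.12 ± 0.12), Rpl9, Rps27a, Rps2 and Rpl5, the last 4 between -0.10 and 0.00. Rps19bp1 is not a ribosomal protein. The values of Rpl26 and Rpl30 rested on single libraries. Without sham replicate 3 that of Rpl26 was 0.20, and without vehicle replicate 2 that of Rpl30 was -0.18. Rpl39, a small protein lining the exit tunnel, measured 82.6 ± 8.27 CPM in sham, 69.8 ± 8.75 in vehicle, 75.3 ± 7.81 in JA and 87.9 ± 9.30 in UA (SD, n = 3), with overlap between sham and vehicle.

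**Figure D4:**
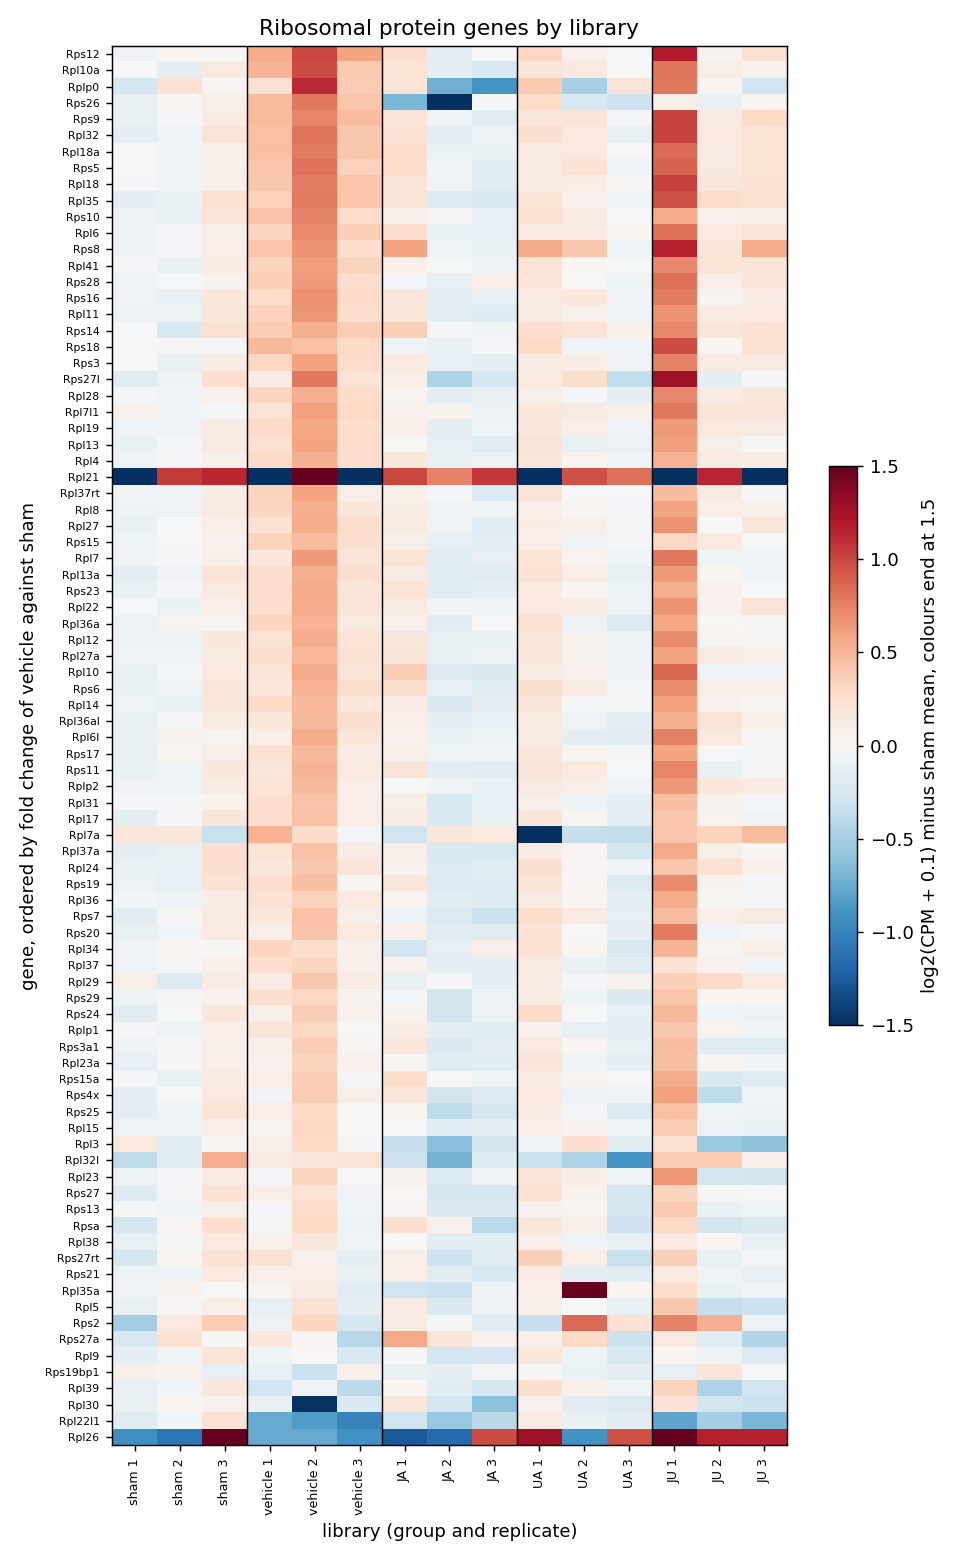
Log2(CPM + 0.1) minus the sham mean for the 86 tested genes (rows, ordered by the fold change of vehicle against sham) in the 15 libraries (columns, with group and replicate). Colours end at 1.5 in either direction. Red fills most rows of the vehicle libraries and of JU replicate 1, while Rpl22l1 and single tiles of Rpl21, Rpl26, Rps26, Rpl30, Rpl35a and Rpl7a depart from their columns.

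In JA most ribosomal protein genes had a lower level than in vehicle. The fold change was negative for 79 of 86 genes and positive for 7, where 49.3% of all genes were positive, with a median of -0.34 (all genes -0.01), and in 53 genes every JA library lay below every vehicle library, where 15.7% of all genes did so. In 1 gene, Rpl22l1, every JA library lay above, where 17.6% did so. edgeR called 0 of 86 higher (1.49% of all genes were) and 0 of 86 lower (0.0727% of all genes were). At an unadjusted p under 0.05, 43 genes were lower (7.22% of all genes) and 1 higher (11.6% of all genes), and DESeq2 called 9 lower (1.43% of all genes) and 1 higher (5.92% of all genes). Without JU replicate 1, 40 were called lower, where 7.76% of all genes were, and 1 higher, where 11.3% were. With GC and length correction and without that library, 0 were called, a setting for which no share of all genes is given. Rps15 had the smallest p. Its JA libraries held 429, 369 and 366 CPM, all below the vehicle libraries, a difference of -0.40 ± 0.11 (adjusted p = 0.0837, and 0.0118 without JU replicate 1). Rpl10a held 172, 136 and 127 CPM in JA, again below all vehicle libraries (-0.69 ± 0.21, adjusted p = 0.117, and 0.00999 without JU replicate 1). JA replicate 1 was the highest of the JA libraries in both genes and also held the most microglia marker signal, 4273 CPM against 745 and 840 in the other 2.

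UA against vehicle gave 76 negative and 10 positive fold changes, where 48.5% of all genes were positive, with a median of -0.27 (all genes -0.01). All UA libraries lay below all vehicle libraries in 37 genes, where 22.2% of all genes did so, and above in 1, where 21.7% did so. Rpl22l1 was the 1 gene called higher (3.12% of all genes were), and 0 of 86 were called lower by edgeR (0.35% of all genes were). At an unadjusted p under 0.05, 22 were lower (11% of all genes) and 2 higher (13.3% of all genes), and DESeq2 called 2 lower (3.08% of all genes) and 1 higher (7.77% of all genes). Without JU replicate 1, 27 were called lower, where 13.4% of all genes were, and 2 higher (Rpl22l1 and Rpl39), where 14.8% were. The same vehicle libraries stand in all of these comparisons, so that a high vehicle value, above all in replicate 2, enters each of them. Side by side, Rps15 differed by 0.35 between vehicle and sham, by -0.40 between JA and vehicle and by -0.34 between UA and vehicle. For Rps12 the values were 0.73, -0.68 and -0.60, and for Rpl41 0.44, -0.44 and -0.36.

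In JU against vehicle the median moved with 1 library. With all 3 JU libraries the median was -0.04 (all genes 0.03), 26 genes were positive, where 58.8% of all genes were, and 0 of 86 were called in either direction, as were 0% of all genes. By unadjusted p under 0.05, 1 gene was higher (1.29% of all genes) and 0 were lower (0.694% of all genes), and DESeq2 called 0 (0.0133% of all genes higher and 0% lower). All JU libraries lay above all vehicle libraries in 1 gene, Rpl26 (2.35% of all genes), and below in 1, Rps26 (1.88% of all genes). Without JU replicate 1 the median was -0.25 with 0 called. That library held the highest level of 61 of the 86 genes (70.9%, against 34.0% of all genes tested), and vehicle replicate 2 that of a further 15. The lowest levels were mostly in JA replicates 2 and 3, with 29 genes each. Rpl41 shows the pattern, with 652 CPM in JU replicate 1 and 453 and 450 in the other JU libraries, where vehicle held 497 to 607. Rps12 was at 240 CPM in JU replicate 1 and at 110 and 124 in the other 2. Rpl3 differed by -0.38 ± 0.21 (adjusted p = 1), with 639 CPM in JU replicate 1 and 370 and 358 in the others, and without replicate 1 by -0.70 (adjusted p = 0.186).

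Between the treated groups, Rpl22l1 in JU against UA was the 1 member called. In JU against JA 82 of 86 fold changes were positive, where 52.3% of all genes were, with a median of 0.31 (all genes 0.02), and 0 were called by edgeR, as were 0% of all genes. At an unadjusted p under 0.05, 23 were higher (10.6% of all genes) and 0 lower (9.75% of all genes), and DESeq2 called 1 higher, Rps7 (1.42% of all genes), and 0 lower (3.16% of all genes). All JU libraries lay above all JA libraries in 15 genes, where 6.39% of all genes did so. Without JU replicate 1 the median was 0.11. Rps7, a small-subunit protein, had the smallest p. It measured 165, 151 and 140 CPM in JA and 242, 188 and 192 in JU, without overlap (0.45 ± 0.14, adjusted p = 0.16). Rpl29 (0.36 ± 0.11, adjusted p = 0.166) and Rpl35 (0.60 ± 0.20, adjusted p = 0.186), both of the large subunit, followed, also without overlap.

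In JU against UA 76 of 86 fold changes were positive, where 52.5% of all genes were, and the median was 0.21 with all libraries and 0.0069 without JU replicate 1. edgeR called 0 of 86 higher (0.0992% of all genes were) and Rpl22l1 lower (0.985% of all genes were), and at an unadjusted p under 0.05, 8 were higher (15.5% of all genes) and 2 lower (11.7% of all genes). All JU libraries lay above all UA libraries in 9 genes, where 9.77% did so, and below in 1, where 13.9% did so. DESeq2 called 1 higher (4.93% of all genes) and 1 lower (5.76% of all genes). Without JU replicate 2, 4 were called higher and 1 lower. No share of all genes is given for that setting, so this count cannot be compared with all genes. In JA against UA 7 fold changes were positive, where 52.4% of all genes were, the median was -0.09, 0 of 86 were called by edgeR or DESeq2, as were 0% of all genes by edgeR and 0.00667% (higher) and 0% (lower) by DESeq2, and at an unadjusted p under 0.05 1 was higher (1.12% of all genes) and 2 were lower (1.04% of all genes). All JA libraries lay below all UA libraries in 5 genes, where 4.15% of all genes did so, and above in 1, where 5.16% did so.

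A handful of ribosomal protein genes stood far from their group in single libraries. Within a group the highest library exceeded the lowest by 1.54-fold in the median gene, taking each gene's widest group, and 11 of 86 genes reached 2-fold in some group. Of 10011 genes at or above the mean CPM of the lowest of these members other than Rpl32l, a floor that most members exceed by far, 23.99% did so. The genes described next were chosen after their values were seen.

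Rpl21, a large-subunit gene with 15 named pseudogenes, was low in some libraries of 4 groups. It had 56 to 109 counts in 6 libraries (sham replicate 1, vehicle replicates 1 and 3, UA replicate 1 and JU replicates 1 and 3), 674 to 869 in 8 libraries and 2259 in vehicle replicate 2. Within vehicle the levels were 3.89, 111 and 4.73 CPM, a 28.5-fold range, and JA was the 1 group with no library in the low range. Rpl26, with 6 named pseudogenes, had a similar spread, with 636 to 926 counts in 8 libraries and 2733 to 5939 in the other 7, which include all 3 JU libraries and sham replicate 3 (310 CPM, against 40.4 and 36.0 in the other sham libraries). JU against vehicle gave 2.18 ± 0.86 for Rpl26 (adjusted p = 1).

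Rps26, which sits at the exit channel of the messenger RNA, was lowest in JA replicate 2. That library held 315 counts (16.2 CPM), where JA replicates 1 and 3 held 1786 and 2574 (89.9 and 142 CPM) and vehicle 200, 250 and 193 CPM. Rpl35a was at 173 to 261 counts in 14 libraries and at 1828 in UA replicate 2, against 217 and 222 in the other UA libraries. JA against UA differed by -2.00 ± 0.62 with it (adjusted p = 1) and by -0.30 without UA replicate 2. Rpl7a, with 13 named pseudogenes, was lowest in UA replicate 1 at 49.9 CPM against 118 in each of the other 2 UA libraries, and its JU values of 201, 190 and 209 CPM lay above all UA values (1.07 ± 0.28, adjusted p = 0.0743). Rpl30, with 9, was lowest in vehicle replicate 2 at 51.1 CPM, against 133 and 122 in the other vehicle libraries, and next in JA replicate 3 at 93.0 CPM.

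The extremes differed from gene to gene within a library. In vehicle replicate 2 Rpl21 was the highest and Rpl30 the lowest of the 15 libraries, and the median ribosomal protein gene was 0.49 (log2) above the sham mean. Of the ribosomal protein pseudogenes, 8 have rows of their own in the table and 5 were tested. In vehicle against sham edgeR called 0 of them (0.787% of all genes higher and 4.24% lower), with 1 at an unadjusted p under 0.05. Without JU replicate 1, 1 was called higher, where 17% of all genes were. The part of such copies in these values was not tested.

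**Figure D5:**
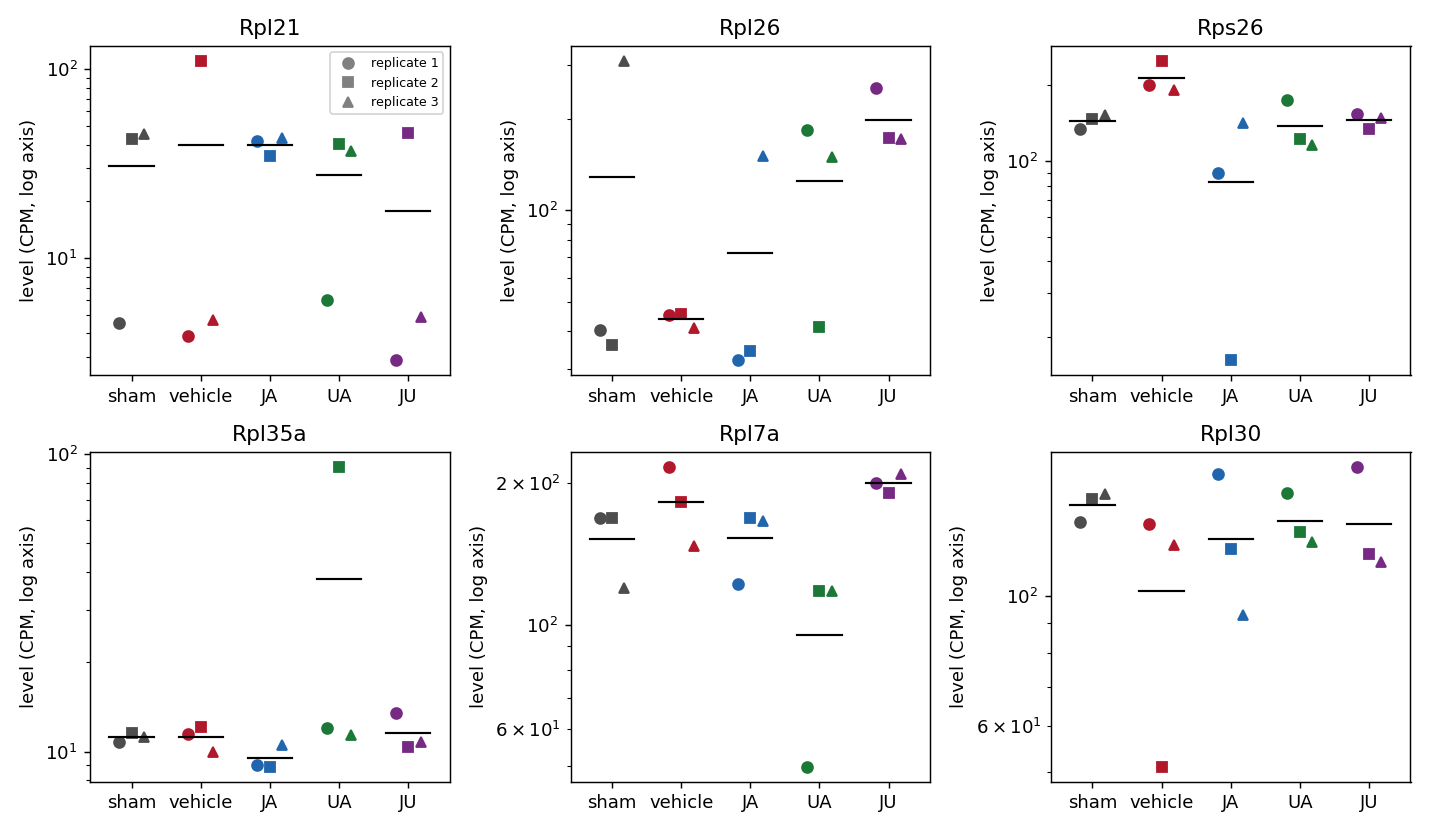
Level (CPM, log axis) of 6 ribosomal protein genes with a library far from the rest of its group. Symbols give the replicate number and black bars the group means. Rpl21 lies at 2.88 to 6.03 CPM in 6 libraries and at 34.6 CPM or more in the other 9, and Rps26, Rpl35a, Rpl7a and Rpl30 each have 1 library apart.

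The other genes of ribosome production and translation were read from lists of their own. Fau, which codes for a ribosomal protein of the small subunit and which the symbol rule leaves out, differed between vehicle and sham by 0.44 ± 0.16 (adjusted p = 0.108), with all vehicle libraries above all sham libraries. Rack1, a scaffold protein on the small subunit, gave 0.62 ± 0.26 (adjusted p = 0.147). Of the 5 ribosome-bound protein genes tested, Rack1 among them, 4 had a positive fold change and 0 were called. Serbp1, with the smallest p of that list, had a negative one (-0.24 ± 0.10, adjusted p = 0.135). Btf3 gave 0.12 ± 0.12 (adjusted p = 0.495). The 78 mitochondrial ribosomal protein genes had a median of -0.08, with 0 called higher, where 0.787% of all genes were, and 7 called lower, where 4.24% were. Without JU replicate 1, 0 were called higher and 15 lower, against 17% and 16.9% of all genes. These shares hold for the counts of the next lists too.

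Values in this paragraph and the next are without the GC and length correction, under which the call of Rpl22l1 was lost with all libraries. No corrected values are given for these genes. Of 28 initiation factor genes 12 had a positive fold change in vehicle against sham, with a median of -0.07. By edgeR 0 were called higher and 5 lower. Leaving out JU replicate 1 gave 3 higher and 8 lower. The cap-binding protein Eif4e fell by 0.50 ± 0.08 (adjusted p = 0.00983), from 114 ± 8.93 to 80.7 ± 5.79 CPM (SD, n = 3). Eif5 (-0.41 ± 0.07, adjusted p = 0.0131) and Eif1 (-0.38 ± 0.09, adjusted p = 0.0314), both of which act in start-codon selection, fell too. All 3 rose in UA against vehicle, by 0.43, 0.37 and 0.36 in that order (adjusted p = 0.0207, 0.0249 and 0.0488). Of 8 genes listed as elongation factors 5 had a positive fold change in vehicle against sham. Called higher were 0 and called lower 1, or 3 and 1 without JU replicate 1. The gene called lower was Eef1e1 (-0.53 ± 0.11, adjusted p = 0.0188), listed here by its name, which codes for a scaffold of the aminoacyl-tRNA synthetase complex. Eef2 (0.34 ± 0.11, adjusted p = 0.088) and Eef1d (0.35 ± 0.12, adjusted p = 0.0978) had positive fold changes without passing the test.

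Among 41 ribosome biogenesis factors 21 had a positive fold change in vehicle against sham, with a list median of 0.0030. By edgeR 0 were called higher and 3 lower. These 3 were Wdr12 (-0.44 ± 0.10, adjusted p = 0.0283), which processes large-subunit RNA, the export adapter Nmd3 (-0.48 ± 0.11, adjusted p = 0.0288) and the pseudouridine synthase Dkc1 (-0.38 ± 0.09, adjusted p = 0.0303). With JU replicate 1 left out, 3 were called higher and 4 lower. Of 14 genes of RNA polymerase I and its factors 8 had a positive fold change. Called higher were 0 and called lower 1, Taf1b (-0.56 ± 0.09, adjusted p = 0.0108). Without JU replicate 1, 0 were called higher and 3 lower. Of 18 genes that carry growth signals to translation 1 was called lower, Rheb, the GTPase that activates mTOR. It fell by 0.66 ± 0.12 (adjusted p = 0.0154), from 111 ± 9.77 to 70.3 ± 5.86 CPM. In this list 5 genes were called higher and 1 lower without JU replicate 1. Myc, a driver of ribosome production, differed by 1.22 ± 0.45 without passing the test (adjusted p = 0.111).

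Markers of cell types were measured beside the family. All 20 microglia and macrophage markers had a positive fold change in vehicle against sham with a median of 2.80, and 4 passed the test (0.787% of all genes did), or 20 without JU replicate 1 (17%). All 14 neuron markers had a negative one with a median of -0.30, and 0 passed by edgeR, with 0 at an unadjusted p under 0.05, while 7 passed without JU replicate 1 (16.9% of all genes). In JA and UA against vehicle the microglia medians were -1.67 and -1.79 and the neuron medians 0.19 and 0.24. The ribosomal protein medians of 0.29, -0.34 and -0.27 had the sign of the microglia markers in each of these 3 comparisons. They also had the sign of the astrocyte markers (medians of 0.27, -0.28 and -0.09), the endothelial and pericyte markers (0.26, -0.27 and -0.29) and the ependymal and choroid plexus markers (0.32, -0.55 and -0.21). The oligodendrocyte medians were -0.08, -0.04 and 0.01. For the 6 red blood cell markers the medians were -1.84, -0.57 and 1.95. Their sign was opposite to that of the family in vehicle against sham and in UA against vehicle. For the infiltrating leukocyte markers (4 of 10 tested) the medians were -0.43, 0.36 and 0.40, opposite to the family in each of the 3 comparisons. In vehicle against sham with all libraries, no marker of the lists from astrocytes to infiltrating leukocytes passed the test. In JA against vehicle the endothelial marker Slco1a4 was called higher by edgeR (0.65 ± 0.14, adjusted p = 0.0411), where 1.49% of all genes were. Its sign was opposite to its list median there, and also in vehicle against sham (-0.41 ± 0.14). The part of these cells in the values of the family was not tested.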

How the data were processed

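Messenger RNA from 15 mouse brain samples (5 groups of 3) was sequenced. The deposited table has a block headed COUNTS and a block headed FPKM, each with a value per gene and library. The counts were taken as unscaled read counts. The FPKM values (fragments scaled by transcript length and depth) were used as deposited. Trimmomatic, HISAT2, Cufflinks, DESeq and the build GRCm38 (mm10) appear in the submitters' processing notes. Which tool counted the reads, and with which strand setting, is not given in the sources used here. 1 count column matched the label of no sample and was not used. GC content and lengths come from GENCODE (GRCm38), which matched 97.9% of genes and all 89 members. Coordinates, gene types and promoters come from RefSeq (GRCm38.p6), where coordinates were matched by Entrez identifier for all 89 members.

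Counts were tested in R 4.3.3 with edgeR 4.0.16 (quasi-likelihood, robust, TMM factors of 0.975 to 1.03), after filterByExpr by group, in 1 fit of all 15 libraries with 10 residual degrees of freedom. The biological coefficient of variation was 27.1%. Adjusted p-values are Benjamini-Hochberg values over 15125 genes, with a threshold of 0.05. Standard errors (SE) were derived from the F statistic and the fold change. DESeq2 1.42.0 was an alternative. The floor of 3 counts covers counting error only. The procedure was tested on simulated data.

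The rule for named genes takes, per comparison, members past the threshold (the 5 largest each way) or, with none, the 3 with the smallest p. It adds the 3 highest and lowest in FPKM, the stalk proteins and Rpsa, paralog pairs, up to 5 members of opposite sign, members with roles outside the ribosome, and up to 3 genes by p from each list of other genes. Of a list of 8 snoRNA host genes none was in the table. Members and lists were chosen with earlier results of these data known. Replicate numbers are shared between groups. Deviations from the group means correlated over 0.1 for every same-numbered pair in 1 comparison only, JU against JA (0.70, 0.39 and 0.42), and there the replicate block left the count of called members at 0.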

Additional observations from a re-analysis of the deposited data

How the results depend on the processing

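The sign of the median fold change was kept in every comparison but JU against vehicle, where it ran from -0.25 (without JU replicate 1) to 0.071 with 1 library left out. Of the alternative medians 92 moved by less than the spread between replicates. The other values are -0.25 for JU against vehicle and 0.0069 for JU against UA without JU replicate 1 (0.0069 to 0.29 with 1 library left out), and 0.054 for JU against JA with GC and length correction and without JU replicate 1, an alternative added after seeing the data. Counts of called members varied. The share of all genes called higher in vehicle against sham varied too, from 0.787% with all libraries to 17% without JU replicate 1. Counts below for settings whose share is not given above cannot be compared with all genes. In vehicle against sham (1 called) there were 0 with GC and length correction, 24 with only the groups compared, 14 with DESeq2, 42 with the added alternative, and 0 to 37 with 1 library left out. In JA against vehicle (0 called) DESeq2 gave 10, and leaving out 1 library 0 to 41. In UA against vehicle (1 called) there were 0 with GC and length correction, 6 with only the groups compared, 3 with DESeq2, 26 with the added alternative, and 0 to 29 with 1 library left out. The highest values in these 3 comparisons were without JU replicate 1. In JU against JA DESeq2 gave 1 in place of 0. In JU against UA (1 called) there were 0 with DESeq2 size factors in edgeR, no filter on low counts, the replicate block, GC and length correction, only the groups compared or the added alternative, 2 with DESeq2, and 0 to 5 with 1 library left out. Of called members, 1 of 1 in vehicle against sham and 1 of 1 in UA against vehicle were also called without JU replicate 1.

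Shares of counts, with the 50 most abundant other genes of any library taken out of the total, were 1.78% in sham, 2.30% in vehicle, 1.71% in JA and 1.82% in UA. Fold changes of genes named in the text reversed under an alternative in 16 cases, against 512 that kept direction and side of the threshold, 35 that passed it only under the alternative and 16 that lost it. In vehicle against sham Rps27 was -0.042 with GC and length correction and -0.041 when JU replicate 1 was also left out, and Rpl5 was 0.23 in both. With 1 library left out, Rps27 ran from -0.032 to 0.18, Rpl5 from -0.14 to 0.053, Rpsa from -0.087 to 0.18, Rps27rt from -0.079 to 0.15, Rpl23 from -0.027 to 0.16 and Rpl26 from -2.01 to 0.20. For Rpl22l1 in JU against JA the added alternative gave 0.030. The causes were not tested. By the labels, the replicate numbers pair no samples in any comparison. Outside JU against JA, same-numbered deviations correlated between -0.73 and 0.48. The replicate block changed no count of called members other than that of JU against UA. Of the 89 genes, depth limits the 3 under the filter.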
